A study of Zea mays with 10 samples.

Results

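The 400 windows described here are the least read windows of the maize genome in small RNA sequencing of 14-day-old Zea mays seedlings. The deposited files give reads per consecutive window of 100 kb along the 10 chromosomes, and 20584 windows held at least 1 read in any of the 10 libraries. Reads of each window were scaled to reads per 1000000 of the library's total (CPM), a window missing from a file was taken as 0, and the windows with the lowest mean CPM over the 10 libraries were kept. They make up 1.94% of the windows listed. The level of a window was therefore what chose it, and levels are given below as a description without a test.

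Leaf libraries came from 6 lines. B73 is an inbred whose genome was sequenced as the maize reference. The line id1 has the genotype P1-wwid1, id4 has P1-wwid4, 9d9a has P1-vv9d9a, 714 has P1-ww714, and 714H is a heterozygote of P1-ww714 and B73. Root libraries came from B73, id1, id4 and 9d9a. The names refer to alleles of p1, a chromosome 1 gene whose Myb protein controls red pigment of cob and pericarp. No treatment is given in the labels, each line and tissue had 1 library, and for leaf the tissue field of the labels says seedling. The files hold no values per gene, so tissue markers could not be examined. Library totals ran from 8472011 to 18396214 reads, and the B73 leaf library was the deepest.

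Most plant small RNAs are short interfering RNAs, cut by Dicer-like enzymes from double-stranded RNA, and microRNAs, cut from hairpin transcripts. In maize the interfering RNAs that guide DNA methylation are made with RNA polymerase IV and come largely from transposon copies, with many of their sources close to genes. Genes are denser towards the chromosome ends, and the regions around centromeres are rich in repeats and poor in genes. A window's read count also depends on how the reads were matched to the reference, and the counting of reads with several matches is not stated.

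The mean level of windows had a low and a high mode, and the least read windows formed the lower tail of the low mode. In steps of 0.5 on the log2 scale of mean CPM, the low mode lay at 1.41 to 2 CPM with 917 windows and the main mode at 32 to 45.3 CPM with 2255 windows. Between them the count of windows fell to 564 at 2.83 to 4 CPM, called the trough here. Below the trough lay 2741 windows, or 13.3% of all, of which the 400 least read windows made up 14.6%. Their own mean levels ran from 0.010 to 0.959 CPM, with a median of 0.721 CPM against 27.8 CPM for all windows. Most of them lay close to the upper limit, with 316 at 0.5 CPM or more and 18 under 0.1 CPM.

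**Figure D1:**
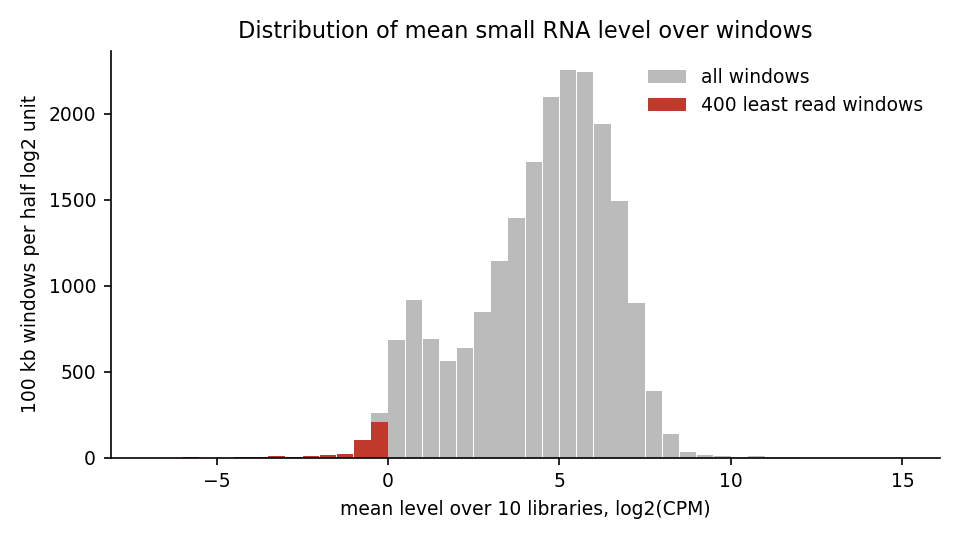
Number of 100 kb windows (vertical axis) by mean level over the 10 libraries in steps of 0.5 on the log2 CPM scale (horizontal axis), for all windows in grey and for the 400 least read windows in red. The grey bars show a low mode with 917 windows in its highest bar and a main mode with 2255, and the red bars are the left edge of the low mode.

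The limit of 400 windows did not fall at a gap in level. The 5 windows just inside it had mean levels of 0.957 to 0.959 CPM. They were 2 windows of chromosome 3 at 75.6 and 79.9 Mb and 1 window each of chromosomes 6, 7 and 10, at 72.6, 70.4 and 81.2 Mb. The 5 just outside had 0.959 to 0.962 CPM and were windows of chromosomes 1, 2, 4, 5 and 7, at 140.1, 88.4, 119.3, 105.8 and 61.5 Mb. A window is named by the position the files give, which was read as its start. The build they refer to is not stated.

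Few of the least read windows were empty. Over the 10 libraries together they held 1 to 112 reads each, with a median of 81, and 15 of them held under 10 reads. Reads were present in every library in 343 of them. Of the 59 listed windows with 0 reads in at least 1 library, 57 were among the least read, and 13 of these were at 0 in 5 or more libraries. The number of least read windows at 0 ran from 9 in B73 leaf, the deepest library, to 27 in id1 leaf. Reads were counted without molecular identifiers and are not independent molecules, so intervals below show counting error alone.

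The emptiest listed window, at 38.9 to 39.0 Mb of chromosome 3, held a single read, in the 714H leaf library. On chromosome 3 the windows at 157.3 and 5.0 Mb held 2 reads each, in different libraries, as did the one at 72.9 Mb on chromosome 9. Both reads at 50.7 Mb of chromosome 8 were from id4 leaf. At 170.1 Mb of chromosome 2 there were 2 reads in B73 leaf and 1 in 9d9a leaf, and at 13.5 Mb of chromosome 4 there were 3 in 9d9a leaf and 2 in 714H leaf. The remaining windows of the 10 lowest were at 64.0, 19.1 and 63.7 Mb of chromosomes 10, 6 and 4 in turn, with mean levels of 0.042, 0.046 and 0.050 CPM and no more than 2 reads in any library. A further 5 positions inside the chromosomes were in no file, and whether they held no reads cannot be told. In 5 of these 10 windows a single library supplied the largest shares of summed CPM found among the least read windows, led by the windows at 38.9 Mb on chromosome 3 and 50.7 Mb on chromosome 8, each with 100%, and the one at 13.5 Mb on chromosome 4, with 63.9%. These shares rest on 1 to 5 reads, so they say nothing of a difference between lines.

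The least read windows lay on every chromosome and were concentrated short of the middle. Of the 400, 172 (43.0%) lay between 30% and 50% of the chromosome length, a stretch that held 4115 of all 20584 windows. The stretch from 30% to 40% held 94 of them and that from 40% to 50% held 78. From 80% to 90% there were 13, from 90% to 100% 17, and from 0% to 10% 29. Within 5 Mb of a chromosome end there were 9 least read windows, or 2.25% of them, against 4.86% of all windows. The rise in the middle was shared by the whole low mode, since the share of windows below the trough was 30.1% at 30% to 40% of the length and 2.53% at 90% to 100%. The median level of all windows fell from 47.3 CPM at 0% to 10% of the length to 10.1 CPM at 30% to 40% and rose to 59.7 CPM at 90% to 100%.

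**Figure D2:**
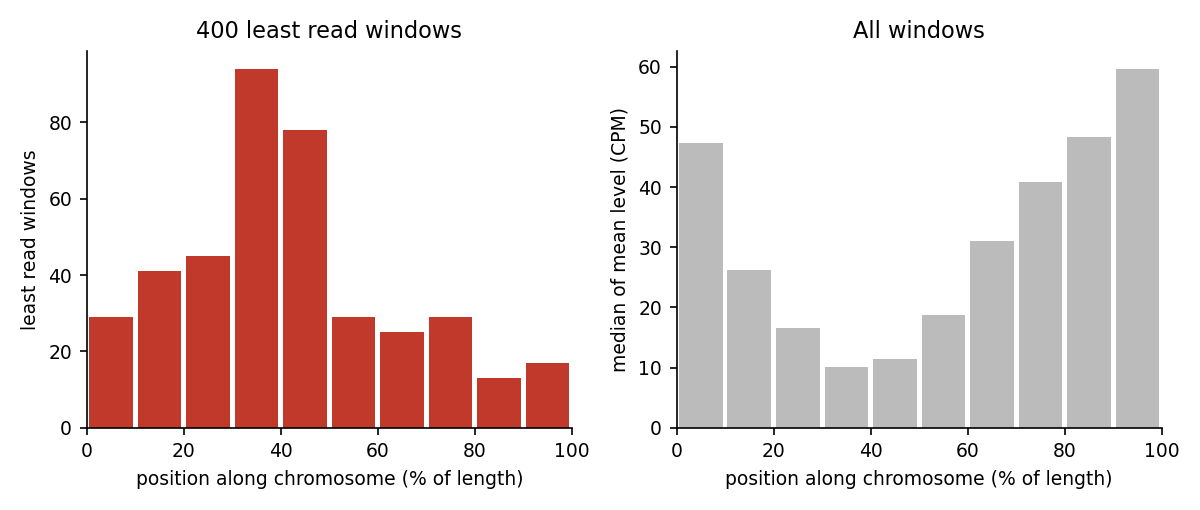
Left, the number of the 400 least read windows in steps of 10% of the chromosome length (horizontal axis, percent of length, all 10 chromosomes pooled). Right, the median of the mean level in CPM over all windows in the same steps; the step from 30% to 40% has the most least read windows, 94, and the lowest median, 10.1 CPM.

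Chromosomes differed in their share. Chromosome 7 had 2.72 least read windows per 100 windows, with 48 in all, followed by chromosome 3 with 2.41 and 56 in all. Chromosome 2 had the lowest share, 1.27 per 100 windows, with 30 in all, and chromosome 1 had the most in number, 62. On chromosome 7, 24 of the 48 lay between 30% and 40% of the length. On chromosome 6 the most, 8 of 34, lay from 0% to 10% of the length, and they included the first window of the chromosome, at 0.746 CPM. Chromosome 6 carries the nucleolus organiser, the array of ribosomal RNA genes, on its short arm. The first window of chromosome 10 (0.906 CPM) and the last listed window of chromosome 9 (0.125 CPM), at 156.7 Mb, were the other end windows among the 400.

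At a finer scale, 209 of 418 blocks of 5 Mb held at least 1 least read window. The block from 130 to 135 Mb of chromosome 1 stood out with 14 of its 50 windows, and the median of all its windows was 1.57 CPM. The blocks from 55 to 60 and from 65 to 70 Mb of chromosome 7 had 8 each, with medians of 1.84 and 1.90 CPM. The block from 80 to 85 Mb of chromosome 3 and that from 70 to 75 Mb of chromosome 9 had 7 each. The block from 5 to 10 Mb of chromosome 6 differed from these, with 5 least read windows in a block whose median was 16.4 CPM.

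Most least read windows stood alone. The 400 windows formed 345 runs, of which 299 were single windows and 40 were pairs. There were 5 runs of 3 windows and 1 run of 6, so that 101 windows lay next to another of the 400. The longest run, from 84.2 to 84.8 Mb of chromosome 3, held 487 reads over all libraries, and its windows had mean levels of 0.306 to 0.927 CPM. The window before it had 1.20 CPM and the window after it 15.3 CPM. Summed over that run, the level was 4.41 ± 1.25 CPM for leaf and 4.13 ± 0.47 CPM for root (SD over n = 4 lines), a difference smaller than the spread between lines.

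The runs of 3 windows included a pair on chromosome 1, from 131.8 to 132.1 Mb and from 134.6 to 134.9 Mb. The others ran from 148.9 to 149.2 Mb on chromosome 5, from 66.1 to 66.4 Mb on chromosome 7 and from 72.2 to 72.5 Mb on chromosome 9. The run on chromosome 9 was the emptiest of the 6 longest, with mean levels of 0.064 to 0.162 CPM and 40 reads in all. Its summed level was 0.334 ± 0.201 CPM for leaf and 0.333 ± 0.142 CPM for root (SD over n = 4 lines). At 134.6 Mb of chromosome 1 the sums were 1.03 ± 0.557 and 1.11 ± 0.142 CPM, and at 148.9 Mb of chromosome 5 they were 2.20 ± 0.685 and 1.32 ± 0.547 CPM. Leaf and root thus differed by less than the larger SD in the first 2 of these runs and by more than either SD in the run of chromosome 5. At 131.8 Mb of chromosome 1 the sums were 2.143 ± 0.138 and 1.826 ± 0.316 CPM, apart by about the larger SD. At 66.1 Mb of chromosome 7 they were 2.39 ± 0.787 and 2.03 ± 0.493 CPM, apart by less than the larger SD. No test was made of these sums.

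The windows beside a least read window covered a wide range of levels. Of 796 such neighbours 686 were not among the 400, and so lay above the limit by the rule; these had a median of 10.4 CPM, with quartiles of 2.07 and 31.3 CPM. Over all 796 the median was 6.72 CPM, with quartiles of 1.40 and 26.1 CPM. Leaving the 400 out again, the median was 15.1 CPM at a distance of 0.2 Mb, 16.0 CPM at 0.9 Mb and 17.8 CPM at 10 Mb, and with all windows it was 12.3 CPM at 0.2 Mb and 16.0 CPM at 10 Mb. Of 396 least read windows with both neighbours listed, 254 had at least 1 neighbour at 10 CPM or more and 90 had both. Both neighbours lay below the trough in 80. Both neighbours were high at 70.6 Mb of chromosome 1, where a window with 0.866 CPM lay between windows with 150 and 87.9 CPM.

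**Figure D3:**
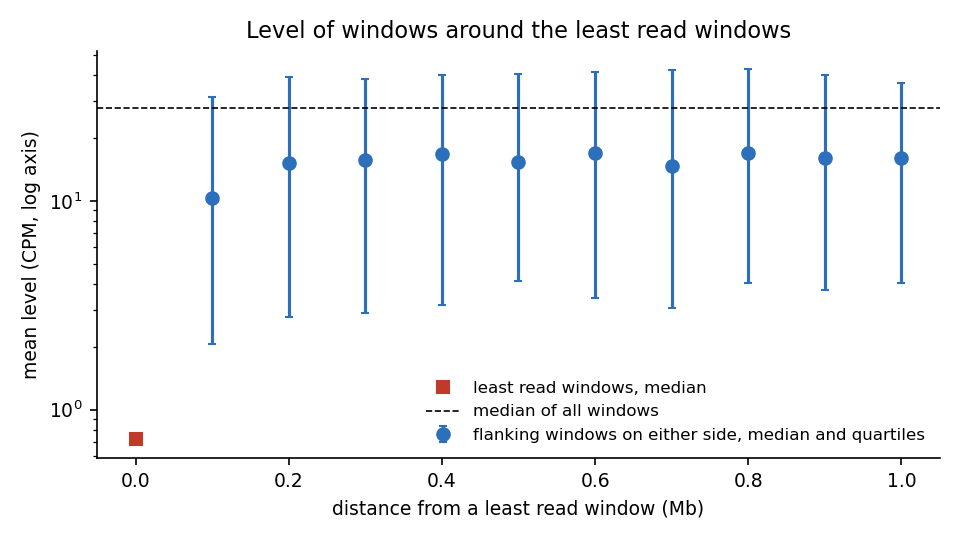
Mean level over the 10 libraries (vertical axis, CPM, log axis) of windows at 0.1 to 1 Mb from a least read window (horizontal axis), windows of both sides together and without those that were least read themselves; points are medians, bars run from the lower to the upper quartile, the red square is the median of the 400 windows, and the dashed line is the median of all windows. The level rises from 0.721 CPM at the windows themselves to 10.4 CPM at 0.1 Mb and 15.1 CPM at 0.2 Mb.

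The setting differed between the middle and the rest of the chromosomes. Between 30% and 50% of the length, windows beside a least read window and not among the 400 had a median of 4.87 CPM, and 37.2% of the 172 least read windows there lay next to another. Outside that stretch the median beside them was 14.3 CPM and 16.2% of 228 lay next to another. Between 80% and 100% of the length all 30 stood alone, and the windows beside them had a median of 30.5 CPM. The list was also split by rank into 4 groups of 100 windows, which differed in place. Of the 100 emptiest windows 27% lay at 30% to 50% of the length, of the next 100 40%, then 47%, and of the 100 fullest 58%. The emptiest thus lay more often outside the middle, yet 36 of them were next to another of the 400, against 20, 25 and 20 in the later groups. Of the 57 windows with a 0 in some library, 55 were among the 100 emptiest.

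The least read windows took a larger share of the library's reads in leaf than in root. The summed level was 294 CPM in B73 leaf (95% Clopper-Pearson interval 286 to 301), 266 in id1 leaf (256 to 277), 261 in id4 leaf (251 to 272) and 267 in 9d9a leaf (257 to 279). The highest values were those of 714 leaf, 322 CPM (311 to 333), and 714H leaf, 309 CPM (298 to 320). For the root libraries it was 247 CPM (239 to 256) for B73, 233 CPM (224 to 242) for id1, 238 CPM (229 to 247) for id4 and 204 CPM (195 to 212) for 9d9a. Every leaf library lay above every root library, and the intervals, which cover counting error only, of B73, id1, id4 and 9d9a did not overlap between the tissues of a line. The ratio of leaf to root was 1.19 in B73, 1.14 in id1, 1.10 in id4 and 1.31 in 9d9a, or 1.19 ± 0.092 (SD, n = 4 lines). The 9d9a root library was the lowest of all, and without 9d9a the mean ratio was 1.14 ± 0.044. The labels name no cell type, and the levels are shares of a library's reads. Fewer cells making a small RNA, less RNA per cell and more reads elsewhere in the library therefore cannot be told apart.

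**Figure D4:**
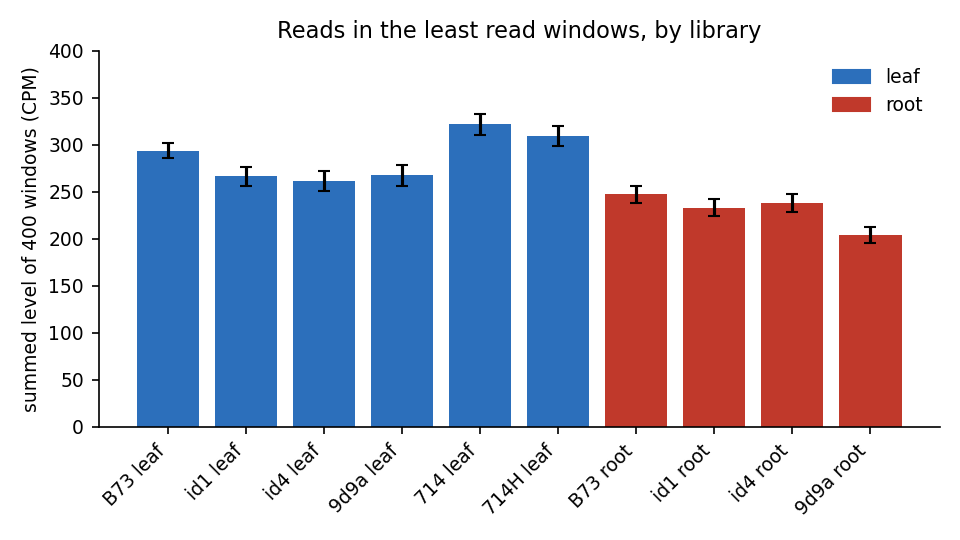
Summed level of the 400 least read windows in each library (vertical axis, CPM, starting at 0), leaf in blue and root in red; error bars are 95% Clopper-Pearson intervals and cover counting error only. The 6 leaf libraries lie between 261 and 322 CPM and the 4 root libraries between 204 and 247 CPM.

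The size of this ratio depended on how the windows were chosen. When the 400 windows with the lowest mean in the leaf libraries were taken, the mean ratio of leaf to root was 1.07 ± 0.093, and with the lowest mean in the root libraries it was 1.40 ± 0.103 (SD, n = 4 lines). A list chosen on a tissue is low in that tissue by its choice. With leaf and root weighted equally in the rule the ratio was 1.21 ± 0.091, and 389 of the 400 windows were the same.

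A higher level in leaf was not particular to the 400 least read windows. The ratio was 1.20 ± 0.102 over ranks 401 to 800, 1.18 ± 0.083 over ranks 801 to 1600 and 1.18 ± 0.088 from rank 1601 to the trough (SD, n = 4 lines), so these classes differed from the least read windows by less than the spread between lines. It was 1.17 ± 0.057 for windows of 2.83 to 4 CPM, 1.11 ± 0.030 for 4 to 8 CPM and 1.05 ± 0.024 for 8 to 16 CPM. Windows of 16 to 32 CPM had a ratio of 1.01 ± 0.020, those of 64 to 128 CPM 0.956 ± 0.030, and those above 128 CPM 1.05 ± 0.054. From the trough up to 128 CPM the ratio thus fell with the level of the windows. In each class below 4 CPM 9d9a had the highest ratio and id4 the lowest or one equal to the lowest, while B73 and id1 changed places between classes.

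**Figure D5:**
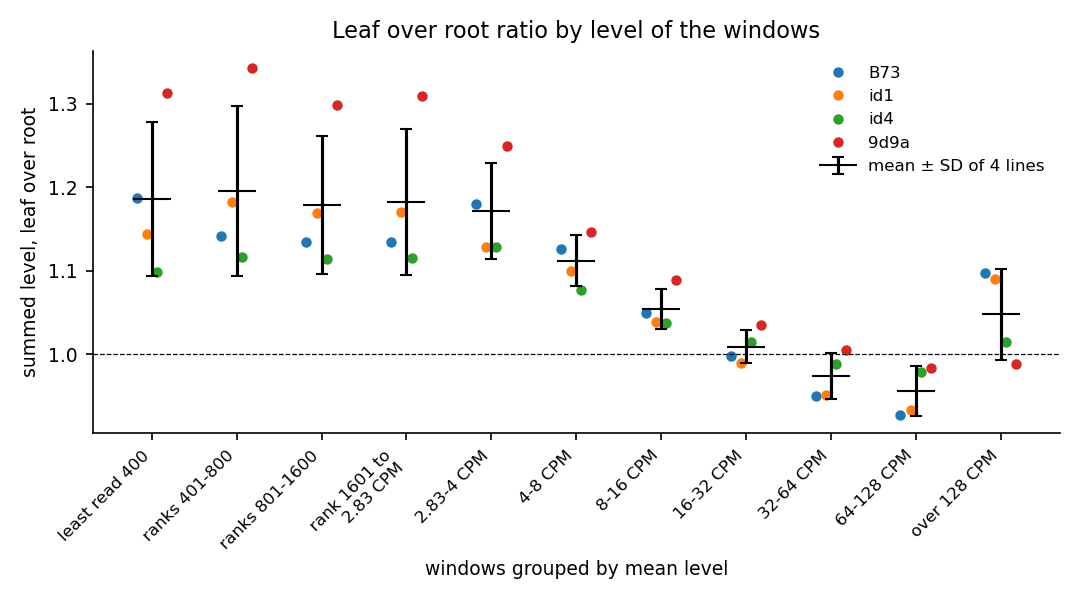
Ratio of the summed level in leaf to that in root (vertical axis, which does not start at 0) for windows grouped by mean level over the 10 libraries (horizontal axis, from the 400 least read windows to those above 128 CPM); coloured points are the 4 lines and the black marks are their mean ± SD. The classes below 2.83 CPM have means of 1.18 to 1.20, and the mean falls to 0.956 at 64 to 128 CPM.

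The higher leaf level was not seen in every line on every chromosome. It was seen in all 4 lines on chromosomes 3, 4, 6, 8, 9 and 10 and in 3 of the 4 on chromosomes 1, 2, 5 and 7. The ratio was most even on chromosome 6, at 1.26 ± 0.029, and least on chromosome 2, at 1.23 ± 0.517 (SD, n = 4 lines). For the 172 windows at 30% to 50% of the length it was 1.11 ± 0.077, and for the 228 others 1.26 ± 0.112.

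Single windows seldom separated leaf from root at this depth. With edgeR's quasi-likelihood test over the 8 libraries of the lines with both tissues, 380 of the 400 windows passed a minimum of 10 reads. Of these, 4 were called higher in leaf at an adjusted p under 0.05, where 11.1% of all 20564 windows tested were. None was called higher in root, against 13.8% of all windows. An unadjusted p under 0.05 was reached by 21 on the leaf side (5.53%, against 17.6% of all windows) and by 3 on the root side (0.789%, against 19.1%). A fit with the line as a block called 9 higher in leaf and 1 higher in root. With edgeR's default filter 2 of 69 windows tested were called higher in leaf, and there was 1 such call without id1 or id4 and 2 without 9d9a. The shares of 11.1% and 13.8% belong to the main fit. Shares of all windows called in these alternative fits are not given, so their counts cannot be set against them. DESeq2 gave no adjusted p for any of the 380 in this comparison. The median SE of a log2 difference was 0.41 among the least read windows and 0.12 over all windows tested. The 4 windows called had log2 differences of 1.09 to 1.27 with SEs of 0.27 to 0.40. Differences of 2-fold and somewhat more were therefore mostly not detectable in single windows. The median log2 difference of leaf over root was 0.25 with quartiles of -0.06 and 0.55, against 0.02 over all windows, and 70.0% of the 380 lay on the leaf side against 52.9% of all windows.

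Without a model, 20 of the 400 windows had every leaf value above every root value over these 4 lines, which is 5.0% where 14.5% of all windows did. The reverse held for 4 of them, or 1.0%, where 13.2% of all windows did. Both shares were below those of all windows. The median of the 400 windows ran from 5 reads in 9d9a leaf to 14 in B73 leaf. With so few reads, a smaller difference between tissues and thin reading cannot be told apart.

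At 67.6 Mb of chromosome 2, leaf had 1.03 CPM in B73, 0.998 in id1, 1.48 in id4 and 1.42 in 9d9a, and root had 0.576, 0.533, 0.549 and 0.531 in the same order. The tissues did not overlap there, and the 4 root values were nearly equal. The log2 difference was 1.10 ± 0.27 (SE), with an adjusted p of 0.0136 in edgeR. It was lost without id4 (0.99, adjusted p 0.0673) or 9d9a (1.03, adjusted p 0.0705). The neighbouring window at 67.7 Mb, with 13.8 CPM, went the other way, with a log2 difference of -0.72 ± 0.12 and an adjusted p of 0.00175.

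At 38.8 Mb of chromosome 3, beside the emptiest listed window, leaf had 1.52 CPM in B73, 1.20 in id1, 1.06 in id4 and 1.06 in 9d9a, and root had 0.740, 0.355, 0.824 and 0.354. Every leaf value was above every root value. The log2 difference was 1.09 ± 0.33 with an adjusted p of 0.0323. It was lost without B73 (1.07, adjusted p 0.121), id1 (0.94, 0.117) or 9d9a (0.998, 0.101). The windows at 38.7 and 39.0 Mb were not called, with log2 differences of -0.20 ± 0.21 and 0.65 ± 0.30.

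At 66.3 Mb of chromosome 7, in a run of 3, leaf had 1.30 CPM in B73, 1.20 in id1, 1.17 in id4 and 0.590 in 9d9a, and root had 0.576, 0.444, 0.641 and 0.177. Leaf was higher in each line, but the 9d9a leaf value lay within the range of the root values. The log2 difference was 1.22 ± 0.38 with an adjusted p of 0.0378, and it was lost without B73 (1.19, adjusted p 0.149), id1 (1.16, 0.127) or id4 (1.37, 0.077). The other windows of that run were not called, with log2 differences of -0.40 ± 0.33 and 0.05 ± 0.48.

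At 23.2 Mb of chromosome 8 the difference was not shared by all lines. Leaf had 0.924 CPM in B73, 1.10 in id1, 1.06 in id4 and 0.354 in 9d9a, and root had 0.329, 0.266, 0.458 and 0.354. In 9d9a, leaf and root thus held the same level. The log2 difference was 1.27 ± 0.40 with an adjusted p of 0.038, and it was lost without B73 (1.18, adjusted p 0.17), id1 (1.05, 0.161) or id4 (1.32, 0.101). Each of these 4 calls was therefore lost when 1 of 2 or 3 lines was left out, with no change of direction. Beside the window of chromosome 8, the least read window at 23.3 Mb was not called, with a log2 difference of -0.72 ± 0.60. In edgeR the window at 23.1 Mb was called higher in leaf (0.42 ± 0.10, adjusted p 0.011). That at 23.0 Mb was called higher in root (-0.60 ± 0.09, adjusted p 0.00112).

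Scaled to library totals, the lines id1, id4 and 9d9a had a lower summed level in the least read windows than B73, and 714 and 714H a higher one. Relative to B73 of the same tissue, the summed level of id1 was 0.908 (leaf) and 0.941 (root), that of id4 0.891 and 0.962, and that of 9d9a 0.911 and 0.823. In leaf it was 1.10 for 714 and 1.05 for 714H. These ratios share the B73 libraries, and each compares single libraries without a replicate check. The counting intervals of 714H leaf, id1 root and id4 root overlapped that of B73 in the same tissue. For 714 and 714H the ratios were alike in the other classes below the trough, at 1.10 to 1.12 and 1.05 to 1.07, and were 1.02 and 0.990 for windows of 4 to 8 CPM. For 9d9a in root they were 0.800 to 0.843 in the other classes below the trough and 0.952 at 4 to 8 CPM.

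In single windows, the comparisons of id1, id4 and 9d9a with B73 gave 5 calls among the least read windows. Leaf and root were fitted together with tissue as a covariate over the 8 libraries, so that a line had 2 libraries. In id1, 4 of 380 windows were called below B73, against 3.55% of all windows tested, and none above, against 1.93%. In id4, 1 was called below, against 3.06% of all windows, and none above, against 1.42%. In 9d9a none was called in either direction, against 3.06% below and 1.58% above among all windows, and 1 was called below with library totals in place of TMM. An unadjusted p under 0.05 for a level below B73 was reached by 25 windows in 9d9a (6.58%, against 7.68% of all windows), 25 in id1 (6.58%, against 7.06%) and 16 in id4 (4.21%, against 7.96%). For a level above B73 it was reached by 6 in 9d9a (1.58%, against 7.31%), 7 in id1 (1.84%, against 7.21%) and 8 in id4 (2.11%, against 6.93%). None of these shares was above that of all windows. DESeq2 called none in id1 or 9d9a, although its log2 changes for the 4 windows of id1 were -2.15 to -3.57 (adjusted p 0.107 to 0.347), and it gave no adjusted p for these windows in id4. The median log2 change from B73 was -0.12 for id1, -0.14 for id4 and -0.17 for 9d9a, against 0.0052, 0.0046 and 0.0057 over all windows, with a median SE of 0.52 to 0.55 per window.

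All 4 windows called in id1 lay on chromosome 1 between 58 and 80 Mb. At 79.5 Mb, id1 had 1 read in leaf and 1 in root, or 0.0998 and 0.0888 CPM. B73 had 22 and 12 reads there, or 1.20 and 0.987 CPM. The leaf ratio of id1 to B73 was 0.083 (exact 95% interval 0.0020 to 0.516) and the root ratio 0.090 (0.0021 to 0.608). In the other lines the window held 0.424 CPM in id4 leaf, 0.944 in 9d9a leaf, 1.51 in 714 leaf, 1.60 in 714H leaf, 1.10 in id4 root and 0.886 in 9d9a root, so id1 was the low line in both tissues. The log2 change was -3.44 ± 0.73 (SE) with an adjusted p of 0.00727 in edgeR, and counting error alone makes its size uncertain. The 4 windows within 0.2 Mb of it were called below B73 as well, with log2 changes of -0.89 to -6.68.

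At 71.8 Mb, the leaf and root libraries of id1 had 2 and 0 reads, and those of B73 had 22 and 10 (log2 -3.26 ± 0.74, adjusted p 0.0115). At 70.6 Mb, id1 had 1 and 3 reads, and B73 had 22 and 12 (-2.50 ± 0.61, adjusted p 0.0198). At 58.1 Mb, id1 had 5 and 1 reads, and B73 had 25 and 13 (-2.04 ± 0.57, adjusted p 0.0474). The exact 95% interval of the ratio of id1 to B73 reached 1 for root at 70.6 Mb (ratio 0.270, lower end 0.049) and came close to it for leaf at 58.1 Mb (0.367, 0.110 to 0.977), and for the other tissue of each and both tissues of 71.8 Mb its upper end was 0.482 to 0.679. With counts this small the fitted sizes depend on the prior count of the model, and they are no bounds. The call at 58.1 Mb was lost without 9d9a (-2.05, adjusted p 0.0599). The windows on both sides of 70.6 Mb, which held 150 and 87.9 CPM, were also below B73 in id1, with log2 changes of -1.81 ± 0.11 and -0.82 ± 0.10, and so were those on both sides of 71.8 and 58.1 Mb. At a distance of 0.2 Mb, the windows at 57.9, 58.3 and 70.8 Mb were called below B73 too. Those at 70.4, 71.6 and 72.0 Mb were not called, with log2 changes of 0.39 (adjusted p 0.879), 0.35 (0.137) and -0.30 (0.0848).

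The window at 70.6 Mb was also the one called in id4, with 1 read in leaf and 3 in root (log2 -2.45 ± 0.61, adjusted p 0.029). In 9d9a it held 1.06 CPM in both tissues, and in leaf 714 had 1.41 CPM and 714H 2.20, so that id1 and id4 were low among the lines. The exact interval of the ratio of id4 to B73 was 0.0021 to 0.549 in leaf and 0.050 to 1.03 in root, so the root counts alone did not separate the lines. Both of its neighbours were below B73 in id4 too, at -1.27 ± 0.10 and -0.70 ± 0.10, and the window at 70.4 Mb was not (0.78, adjusted p 0.64). Of the 9 least read windows from 50 to 90 Mb of chromosome 1, a stretch taken with earlier results of these data known, all 9 had a fitted change below 0 in id1, with a median log2 of -2.04. In id4 and 9d9a 6 of the 9 did, with medians of -0.67 and -0.20. Over all windows tested, 48.8% lay below 0 in id1, 49.2% in id4 and 48.7% in 9d9a. The windows called in id1 are among these 9, and the median of -2.04 is the value of the called window at 58.1 Mb. The counts therefore add no support to those calls. The share over all windows of this stretch is not given, so nothing particular to the least read windows can be read from them. At 55.6 Mb the change in id1 was close to none, at -0.0057 ± 0.53. At 51.6 Mb the level was 0.108 CPM over all libraries, and the fitted changes of -5.27 ± 1.55 in id1 and -5.30 ± 1.61 in 9d9a did not pass (adjusted p 0.0727 and 0.0945).

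Close to the threshold in 9d9a was 148.9 Mb of chromosome 5, the first window of a run of 3. It held 0.978 CPM in B73 leaf and 0.822 in B73 root, and 0.118 and 0.177 CPM in 9d9a. The levels of id1 were 0.599 and 0.355 CPM and those of id4 0.318 and 0.183 CPM, so B73 was the highest of these lines in both tissues. The log2 change in 9d9a was -2.41 ± 0.67 with an adjusted p of 0.0521.

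Copies of the 714 allele, 2 in 714, 1 in 714H and 0 in the other leaf libraries, were followed as a slope over the 6 leaf libraries. Of 374 least read windows tested none was called, where 0.632% of all windows rose and 1.7% fell. At an unadjusted p under 0.05 there were 10 with a slope above 0 (2.67%, against 6.82% of all windows) and 3 below (0.802%, against 9.97%), and DESeq2 gave no adjusted p for these windows. The smallest p, 0.00678 (adjusted p 0.116, edgeR), was that of 213.1 Mb of chromosome 3. There 714 had 0.201 CPM and 714H 0.10, and the other leaf libraries 0.799 to 0.870 CPM, so both 714 stocks were low, 714H no less than 714. The slope was -1.42 ± 0.39 per copy on the log2 scale. The median slope over the 374 windows was 0.11, against 0.0016 over all windows, and 61.2% of them had a slope above 0, against 50.4% of all windows. Only 714 and 714H carried the allele, so its dose and their genetic background cannot be told apart.

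The spread between libraries was also set against counting error window by window. Within a tissue, the chi-square per degree of freedom of a window's reads over the 4 lines had a median of 1.17 in the 400 windows, where counting error alone gives a median of 0.891. It was 1.09 over ranks 401 to 800, 1.66 for windows of 4 to 8 CPM, 4.44 for those of 32 to 64 CPM and 12.6 above 128 CPM. With so few reads per window a value near that of counting error does not show that libraries were alike, and the summed levels above did differ between libraries of a tissue by more than their counting intervals. Over all windows the deviations of a line from its tissue mean in leaf and root had a correlation of 0.55 to 0.79 across windows. Over the least read windows this was -0.01 to 0.11. Windows are not independent replicates and share the library, so these correlations are descriptions.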

How the data were processed

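Small RNA of leaf (6 libraries) and root (4 libraries) was sequenced, and groups were taken from the sample titles. Per the file headers, the deposited files hold counts, whole-number reads per 100 kb window. The submitters' processing notes name Bowtie; its settings, the genome build and how reads with several matches were treated are not stated there. No genome was used. No normalisation by the authors shows in the values. Windows absent from a file were taken as 0, and 5 positions listed in no file were not analysed here except as 0 in an alternative.

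CPM were computed on library totals. The 400 members and the comparisons were chosen with earlier results of these data known. All windows with at least 10 reads over the libraries of a fit were tested with edgeR 4.0.16 (R 4.3.3; TMM, robust quasi-likelihood, Benjamini-Hochberg over all windows tested, threshold 0.05), and DESeq2 1.42.0 was an alternative. The test was checked on simulated counts, with changes set only in windows with many more reads than any of the 400. That check therefore does not cover windows read as little as these. Residual degrees of freedom were 6 for leaf against root, 3 for the lines and 4 for the 714 slope. The quasi-likelihood test also borrows its estimate of spread from all windows tested, most of which held far more reads than the 400. The p-values therefore do not rest on these degrees of freedom alone. SEs were derived from the F statistic. The labels do not say how many plants a library holds, so the p-values rest on the spread among the libraries alone. For leaf against root and the 714 slope that spread includes differences between lines. The common coefficient of variation was 0.183 for leaf against root and 0.0841 with the line as a block. For the lines it is the scatter left after line and tissue. How much of either spread is technical cannot be told. Pairing by line rests on the genotype that leaf and root of a line share; their deviations, on log2(CPM + 1), correlated at 0.55 to 0.79 over all windows but at -0.01 to 0.11 over the 400.

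Windows named were the 10 lowest, 5 on each side of the limit, the longest runs, the 5 with the largest share in 1 library, and all called; the windows near the threshold, at 51.6 Mb of chromosome 1 and the smallest p of a comparison were chosen after their values were seen.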

Additional observations from a re-analysis of the deposited data

Results flagged for a closer look

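In the 9d9a leaf library the window at 66.3 Mb of chromosome 7 held 0.590 CPM, lying apart from the other 5 leaf libraries, which held 1.11 to 1.30 CPM. It rests on 5 reads in the library with the fewest reads, so counting error weighs on it. Among the named windows with at least 10 reads in a tissue and the summed levels, 18 sets of library values were examined for such a gap, and chance gives about 1 in 20. This was the only value flagged, which is close to what that rate gives over 18 sets.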

How the results depend on the processing

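Each of the 4 calls of leaf against root was lost when 1 of 2 or 3 lines was left out. Counts of 0 calls that stayed at 0 say nothing of stability. Pairing leaf and root by line (line as replicate block) raised the windows called higher in leaf from 4 to 9 and those higher in root from 0 to 1, and the 4 calls remained among these 10. The block was fitted for leaf against root only, and the share of all windows it called is not given. With edgeR's default filter 69 windows were tested and 2 called higher in leaf. Leaving out 1 line gave 1 to 3 calls higher in leaf, and of the 3 without B73 1 was among the 4. DESeq2 called 0 windows below B73 in id1 where edgeR called 4, with log2 changes of -2.15 to -3.57 against -2.04 to -3.44, and library totals in place of TMM gave 1 call below B73 in 9d9a where there was 0. The cause was not tested. Among the 200 emptiest windows 33.5% lay at 30% to 50% of the chromosome length and 20.0% next to another, against 43.0% and 25.3% of the 400, and fewer windows leave fewer neighbours by construction. The summed ratio of leaf to root was 1.07 with windows chosen on leaf, 1.40 with windows chosen on root and 1.16 with TMM-adjusted library sizes. Without 1 library the rule kept 375 to 387 of the 400 windows. A median of 81 reads per window over 10 libraries limits single windows.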
